A study of Polypedilum vanderplanki with 33 samples.

Results

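In larvae of the African midge Polypedilum vanderplanki, 33 of the 28415 gene models counted stood higher early in drying and higher again in late drying and the dry state. They were chosen by their levels. A gene's level was log2(mean CPM + 1), where CPM is its count per 1000000 counts of the library. A gene was kept when its level over the 12 libraries from 8 to 24 h of dehydration (the early libraries) exceeded that over the 2 libraries at 0 h by at least 1.5, and when its level over the 7 libraries at 40 h, 48 h and 0 h of rehydration (the late libraries) exceeded the early level by at least 1. Genes of 5 scaffolds were left out by the rule, which removed 4 genes past both thresholds. In all, 338 genes passed the early threshold, and 305 of these are not among the 33. The rises that the rule asked for are given as a description, with no test.

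Polyadenylated RNA was sequenced from whole larvae of an inbred line at 10 times of drying (0, 1, 8, 12, 16, 24, 32, 36, 40 and 48 h) and 7 times of rewetting (0, 1, 3, 6, 12, 24 and 48 h). No other treatment or genotype is named. There were 2 libraries at 0, 1 and 48 h of dehydration and at 0, 1 and 3 h of rehydration, 3 at 8, 12, 16, 24 and 40 h of dehydration, and 1 at every other time. Of the 33 libraries 22 carry batch 1 and 11 batch 2 in the labels, and both 0 h libraries are of batch 1. The labels do not say whether replicates were separate animals or pools, so a p-value here measures spread among libraries that may be only technical.

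Larvae of this midge survive the loss of nearly all their body water, a state called anhydrobiosis. As background, drying larvae are known to accumulate the sugar trehalose, and to make late embryogenesis abundant proteins and heat shock proteins, which are held to protect other proteins and membranes while water is scarce. Heat shock factor, which drives heat shock genes through short repeated motifs, has been linked to this response. The gene IDs of the files carry no names and matched 0 entries of the reference table, so no role can be given to any of the 33, and the tissue label could not be checked against marker genes. Because whole larvae were sampled, fewer cells of a type and less RNA per cell cannot be told apart.

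Each library held between 15015674 and 34179203 counts, with a median of 25150715. Replicate 2 at 1 h of rehydration stood apart, with 8035 genes detected against at least 14232 in every other library. It entered no test, and its values are given where they bear on a result. The library counted as 40 h replicate 2 is titled as 40 h but carries a duration of 48 h. All 33 genes passed the filter on low values (at least 2 libraries with a CPM of 1 or more), as did 17789 genes in all.

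As a set, the 33 genes went from a very small part of the library to a sizeable one. They took 0.0531% and 0.0666% of the counts in the 0 h libraries. At 8 h the share was 0.230% ± 0.0335 (SD, n = 3), and at 24 h it was 0.373% ± 0.0310 (SD, n = 3). At 40 h it stood at 1.32% ± 0.130 (SD, n = 3). It was 1.55% ± 0.212 (SD, n = 2) in larvae dried for 48 h, and 1.39% ± 0.0636 (SD, n = 2) at the start of rewetting. The early libraries lay between 0.196% and 0.404% and the late ones between 1.19% and 1.70%, without overlap, which follows from the choice of genes. A single gene, PvG012512, held 40.5% of the summed late CPM of the 33. Without it the share was 0.298% ± 0.0350 at 24 h and 0.792% ± 0.0255 at 40 h.

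**Figure D1:**
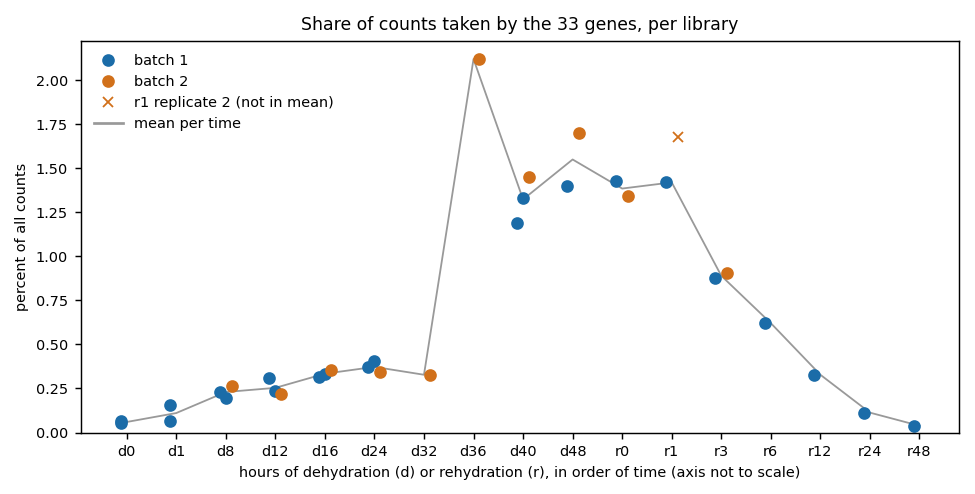
Share of all counts taken by the 33 genes in each library, in percent, against hours of dehydration (d) or rehydration (r) in order of time. Points are libraries, coloured by batch, the line joins the mean per time, and the cross marks 1 h of rehydration replicate 2, which is not in the mean. The share is highest at 36 h of dehydration (2.12%) and lowest at 48 h of rehydration (0.0384%).

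The 2 steps of the rule differed widely in size among the members. The early level exceeded the 0 h level by 1.62 to 5.73 (median 1.97, log2), and the late level exceeded the early level by 1.03 to 5.89 (median 1.81). Early libraries lay above both 0 h libraries without overlap for 27 of the 33 genes, where 6.68% of all tested genes did so, and late libraries lay above every early library for 26, where 3.52% did. Nothing is read from these counts, since the rule used the same libraries. The late step was at least 1 in batch 1 alone for 31 genes and in batch 2 alone for 31. These are the libraries that the rule used, split by batch, and no share over all tested genes was taken. Nothing is read from these 2 counts either. The exceptions in batch 1 were PvG016879 and PvG016446, at 0.66 each, and in batch 2 PvG032365 at 0.86 and PvG029158 at 0.82.

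The genes nearest each threshold, inside and outside, lay close together. PvG016879 (scaffold 307, 131014 to 131423) had the smallest early step inside, 1.624, and PvG006505 (scaffold 145, 1026799 to 1028884) the largest outside, 1.497. For the late step, PvG016446 (scaffold 298, 29255 to 32509) lay inside at 1.032 and PvG007740 (scaffold 1658, 158637 to 160342) outside at 0.992. Trimmed-mean (TMM) scaling factors lay between 0.543 and 0.869 in the late libraries and between 0.987 and 1.17 in the early ones. With TMM-scaled CPM 73 genes met the rule, among them all 33.

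**Figure D2:**
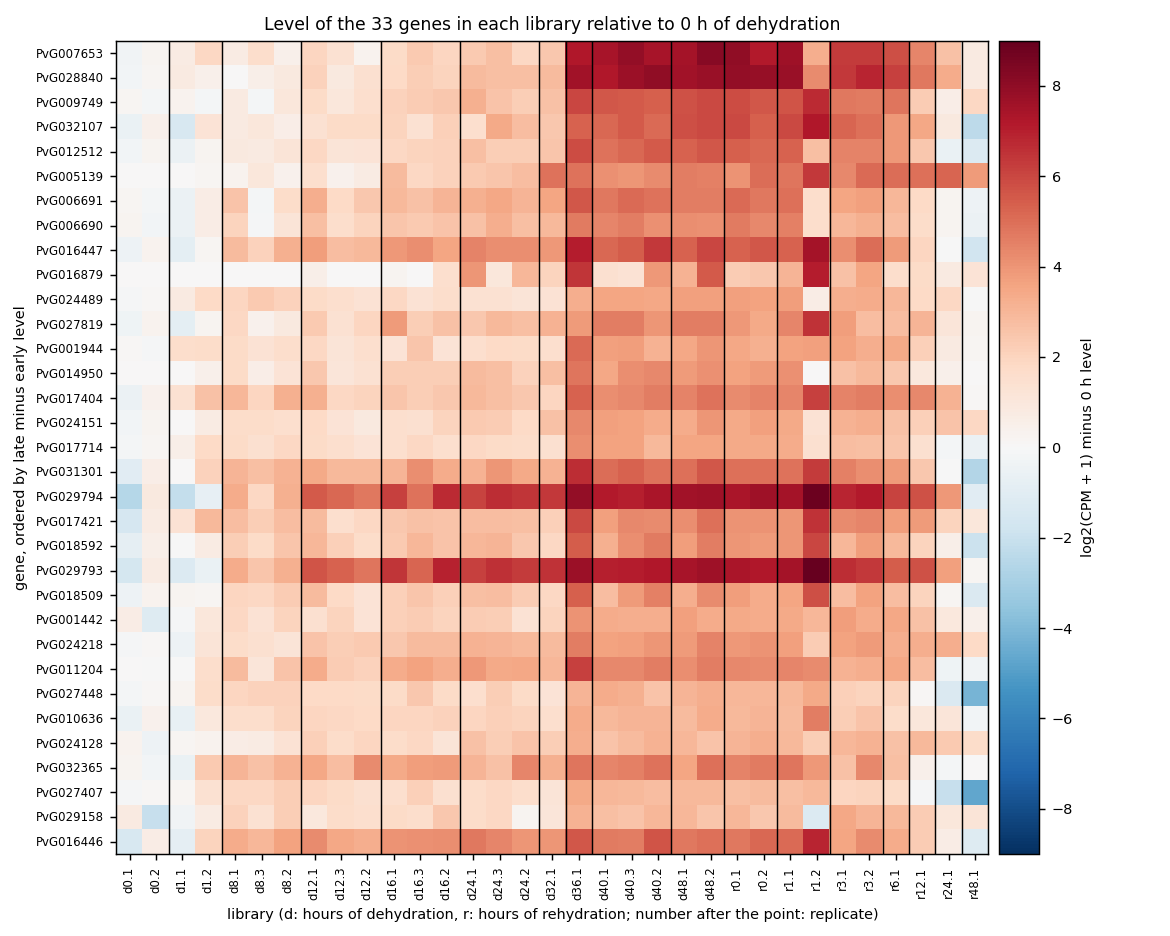
Level of each of the 33 genes (rows, ordered by late minus early level) in each of the 33 libraries (columns, in order of time), as log2(CPM + 1) minus the 0 h level. Red is above and blue below the 0 h level. The change of shade between d32 and d36 runs through nearly all rows, and r1.2 is the library that entered no test.

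The 5 genes with the most counts in the late libraries differed in the sizes of their early and late steps. PvG012512 (scaffold 238, 62094 to 64887, plus strand, 4 exons) was at 120 and 168 CPM at 0 h. In the early libraries it ran from 252 to 928 CPM (median 521), and in the late ones from 4245 to 6983 CPM (median 5609). The lowest late library was well above the highest early one, and the late step was the larger (3.51 against 1.78 for the early step, log2).

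PvG029794 (scaffold 7621, 1418 to 1901, minus strand, 2 exons) showed the opposite weighting. It had 0 and 9.97 CPM at 0 h, 20.4 to 618 CPM (median 245) early and 775 to 1177 CPM (median 993) late. Its early step was 5.63 and its late step 1.77. Per kilobase of exon it was the most abundant of the 33 in the late libraries, at 2341 CPM per kb, followed by PvG012512 at 2183 and PvG032107 at 1255.

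PvG032107 (scaffold 78037, 23672 to 26255, plus strand, 4 exons) was at 8.63 and 18.8 CPM at 0 h, 21.1 to 159 CPM (median 44.5) early and 501 to 899 CPM (median 674) late. PvG017404 (scaffold 3164, 84246 to 87235, plus strand, 4 exons) was at 22.1 and 41.0 CPM at 0 h, 118 to 296 CPM (median 179) early and 581 to 948 CPM (median 702) late. PvG027407 (scaffold 629, 77135 to 79365, plus strand, 4 exons) was at 134 and 149 CPM at 0 h, 387 to 660 CPM (median 491) early and 911 to 1119 CPM (median 1053) late. In none of these 3 did the late libraries overlap the early ones, and PvG027407 had close to the smallest late step of the 33, 1.06.

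The late step reached 3 or more in 5 genes, namely PvG007653, PvG028840, PvG009749, PvG032107 and PvG012512. PvG007653 (scaffold 16476, 1 to 482, minus strand) and PvG028840 (scaffold 6829, 1 to 1123, plus strand), singled out after their values were seen, had late steps of 5.89 and 5.81. PvG028840 was at 0.758 and 1.33 CPM at 0 h, 1.09 to 13.7 CPM (median 6.58) early and 303 to 519 CPM (median 455) late, a late mean 64.2 times the early mean. For PvG007653 that ratio was 77.5, with 176 to 351 CPM late. Both models are a single exon that starts at the first base of its scaffold, as does PvG005139 (scaffold 13452, 1 to 1594), and whether the models are complete was not tested.

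At the low end, 3 genes had 0 counts in both 0 h libraries: PvG005139, PvG014950 and PvG016879. Of these PvG016879 leaned on few libraries. It had a median of 0.0859 CPM over the early libraries but 14.4 and 7.09 CPM at 24 h replicates 1 and 2, and its late values ran from 1.47 to 44.0 CPM (median 4.26), with the highest in 48 h replicate 2. Its late libraries overlap the early ones.

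**Figure D3:**
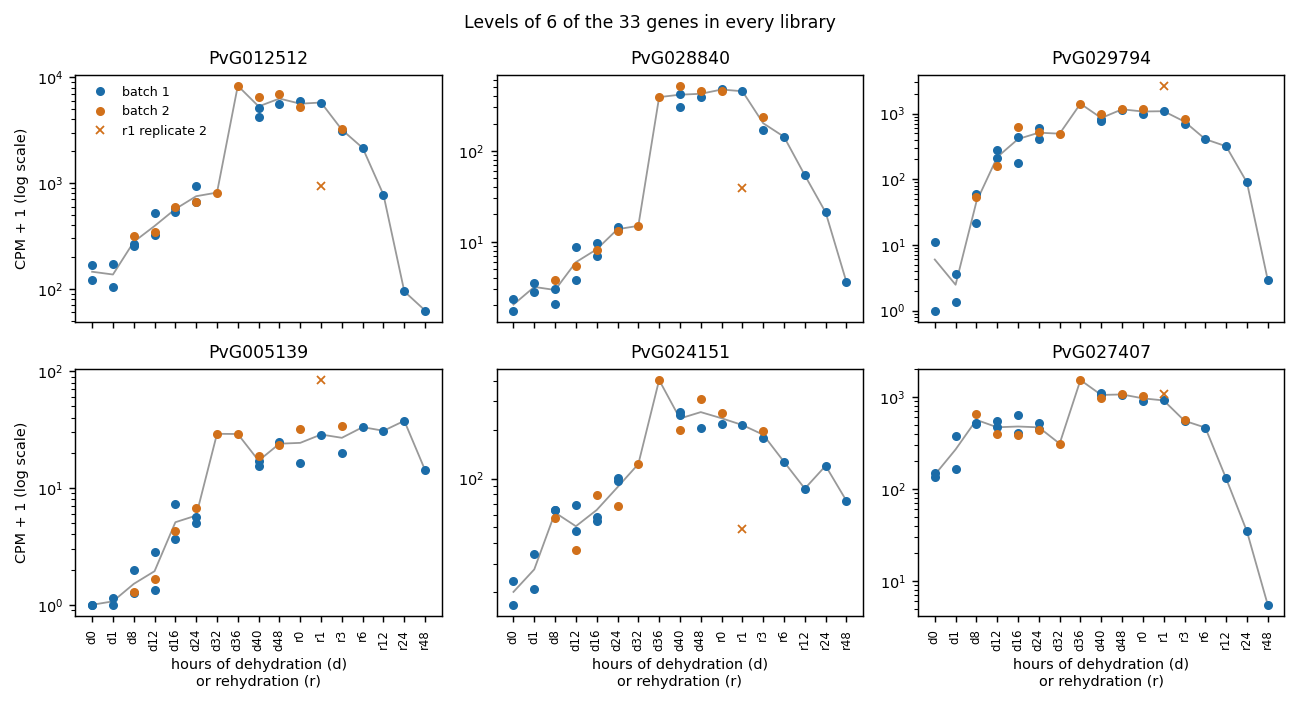
CPM + 1 on a log scale for 6 of the 33 genes in every library, in order of time, with points coloured by batch, a cross for 1 h of rehydration replicate 2 and a line through the mean per time without it. PvG012512 and PvG028840 step up between 32 and 36 h, PvG029794 between 1 and 16 h, PvG005139 is at its highest at 24 h of rehydration (36.6 CPM) outside the library marked by the cross, PvG024151 is still at 72.0 CPM at 48 h of rehydration, and PvG027407 ends below its 0 h level.

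The 33 genes lay on 25 of the 6190 scaffolds, and 14 of them were direct neighbours of another member, in 7 pairs. No run was longer than 2. In 5 of the pairs the models overlap on opposite strands: PvG006691 with PvG006690 (scaffold 14654, 1248 shared bases), PvG017404 with PvG017421 (scaffold 3164, 750), PvG018509 with PvG018592 (scaffold 336, 556), PvG024128 with PvG024218 (scaffold 493, 656) and PvG027407 with PvG027448 (scaffold 629, 677). The use of strand in counting is not given in the sources used here, so reads of the 2 partners of these 10 genes cannot be told apart. Their log2(CPM + 1) had a Pearson correlation of 0.93 to 1.00 over 32 libraries, which share depth and time course within a pair. In all, 19 members overlap another model, and the same limit may hold for those outside these pairs. PvG012512, PvG032107, PvG011204 and PvG016879 are among them.

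The other 2 pairs do not overlap. PvG029794 and PvG029793 on scaffold 7621 point away from each other across a gap of 1554 bases and had a correlation of 0.99. PvG016446 and PvG016447 follow each other on the minus strand of scaffold 298 with a gap of 161 bases and had 0.96. PvG029793 (3456 to 4026, plus strand, 2 exons) had an early step of 5.73, the largest of the 33, next to the 5.63 of its neighbour.

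The gene models of the members were set beside those of all tested genes. They had 1 to 13 exons with a median of 3, as all tested genes did, and 9 were of a single exon (27.3%, against 22.2% of all tested genes). Exonic length ran from 309 to 6037 bases with a median of 1248, against 1399. All carried a strand, 19 plus and 14 minus, while 5.78% of tested genes had none. Overlap with another model was seen in 19 (57.6%, against 41.8%), and 17 had more than 1 transcript model (51.5%, against 33.5%). These shares were not tested.

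Levels before the early libraries could be read at 1 h, from 2 libraries that the rule did not use. Replicate 2 was above both 0 h libraries for 24 of the 33 genes, against 30.5% of all tested genes, and replicate 1 for 10, against 29.8%. In replicate 2 the median of the 33 genes lay 0.77 above the 0 h level (log2), and in replicate 1 it lay 0.00 above. PvG017404 was at 81.8 and 199 CPM and PvG027407 at 162 and 374 CPM in replicates 1 and 2, both above 0 h. PvG012512, at 102 and 169 CPM, was close to its 0 h values of 120 and 168 CPM. Replicate 2 was above replicate 1 for 29 of the 33 genes, against 42.6% of all tested genes. The 1 h replicates lay apart, and the low 0 h levels were part of the choice of members, so no test was made.

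Within the early phase, 24 h was compared with 8 h, 3 libraries each. All 6 libraries are part of the early mean that chose the members, so the fit's calls are given as a description and not as an independent test. PvG016879, for one, passed the early threshold through its 24 h values, with 0 counts at 8 h. The fit called 7 of the 33 genes higher at 24 h and 0 lower (edgeR's quasi-likelihood test, Benjamini-Hochberg adjusted p under 0.05 over 17789 genes), where 0.427% of all tested genes were called higher and 0.585% lower. Nothing about the members is read from that background. The genes called higher were PvG005139, PvG009749, PvG012512, PvG024128, PvG024218, PvG028840 and PvG029793. At an unadjusted p under 0.05, 18 were higher and 1 lower, and DESeq2 called 16 higher and 0 lower. The median log2 fold change was 1.38 over the 33 genes and -0.02 over all tested genes, with 28 genes above 0. In 21 genes every 24 h library lay above every 8 h library, as in 6.81% of tested genes, and in 1 gene below, as in 13.2%.

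PvG005139 had 0.254, 0.278 and 0.999 CPM at 8 h and 4.02, 5.71 and 4.70 CPM at 24 h. The groups do not overlap, and the log2 fold change was 3.47 ± 0.63 (SE). PvG029793 had 29.8, 26.4 and 15.5 CPM at 8 h and 214, 228 and 286 CPM at 24 h. Its log2 fold change was 3.42 ± 0.76 (SE), again without overlap.

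PvG012512 was at 262, 317 and 252 CPM at 8 h and 928, 658 and 664 CPM at 24 h, with a log2 fold change of 1.51 ± 0.22 (SE). In 2 other members with high early levels the libraries overlapped. PvG017404 was at 262, 296 and 123 CPM at 8 h and 249, 171 and 214 CPM at 24 h. PvG027407 was at 513, 660 and 517 CPM at 8 h and 449, 432 and 521 CPM at 24 h. PvG024489 had the lowest log2 fold change, -0.73 ± 0.22 (SE), with all 24 h libraries below all 8 h libraries. It was not called, but was without scaling factors, at -0.82.

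The count of members called at 24 h depended on single libraries. Leaving out replicate 1 of the 8 h group gave 3 genes, as did leaving out replicate 2 of the 24 h group. Leaving out replicate 2 at 8 h or replicate 1 at 24 h gave 4. With all 33 libraries in the fit it was 0, and in batch 1 alone it was 1. PvG005139 lost its call without replicate 1 or 2 at 8 h and without replicate 2 at 24 h, and PvG029793 without any one of the 6 libraries. Without scaling factors 77 genes were called higher and 192 lower over all tested genes, against 76 and 104 with TMM.

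At 36 h nearly all members were well above their level at 32 h. Both times have 1 library, of batch 2, and the rule used neither, so there is no replicate check and no test. At 32 h the members took 0.328% of the counts and 26 of the 33 were within the range of their own early libraries, as were 78.9% of all tested genes. At 36 h they took 2.12%. On log2(CPM + 1), 31 of the 33 were at least 2-fold higher at 36 h than at 32 h and 0 were at least 2-fold lower, where 13.6% of all tested genes were higher and 13.4% lower by that much. The median difference was 2.07 for the members and -0.03 for all tested genes.

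PvG012512 went from 812 CPM at 32 h to 8322 CPM at 36 h, and PvG028840 from 14.0 to 389 CPM. PvG017404 was at 126 and 1289 CPM, and PvG027407 at 310 and 1530 CPM. The 2 exceptions, named after their values were seen, were PvG005139, at 28.1 and 28.0 CPM, and PvG027819, at 19.9 and 32.9 CPM. PvG005139 was already above all its early libraries at 32 h (highest 6.32 CPM).

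For 23 of the 33 genes the 36 h library was above all 7 late libraries, against 39.0% of all tested genes. In 22 it was the highest of the 32 libraries, a count for which no share over all tested genes was taken. Both counts are of CPM without TMM scaling. The TMM factor was 0.9984 at 36 h and between 0.543 and 0.869 in the late libraries. On that scale the late libraries stand higher beside 36 h, and the counts were not taken there. PvG011204 (scaffold 210, 159310 to 163550, plus strand, 8 exons) was at 315 CPM at 36 h and at 81.8 to 108 CPM in the late libraries. PvG007653 did not follow: its 177 CPM at 36 h lay at the foot of its late range, which ended at 351 CPM. With 1 library at 36 h, a property of that library and of that time cannot be told apart.

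A test was then made in libraries that played no part in the choice, at times that adjoin those the rule used. The rule had asked for late levels above 0 h, so a rise between these adjoining times was largely set by the choice of members. The 36 h library of dehydration and replicate 1 at 1 h of rehydration, the libraries before and after the late ones, were averaged over their fitted times and set against the 2 libraries at 1 h of dehydration. All 33 genes were higher (edgeR's quasi-likelihood test, Benjamini-Hochberg adjusted p under 0.05 over 17789 genes), where 11.0% of all tested genes were higher and 12.0% lower. DESeq2 also called 33 higher. Of the 33 genes 10 are partners in overlapping pairs, so the calls are not all separate. The median log2 fold change was 4.93, between 2.42 and 11.91, against -0.14 over all tested genes. In no gene did the libraries overlap, and 17.3% of all tested genes were placed like this (0 members against 37.4% the other way). The 1 h libraries are of batch 1 and the 36 h library is of batch 2, and in batch 1 alone, without 36 h, 30 of the 33 were higher. With all 33 libraries in the fit, replicate 2 at 1 h of rehydration included, the count was 32.

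The largest values came from genes near 0 at 1 h. PvG029793 was at 0.289 and 0.952 CPM at 1 h, 629 CPM at 36 h and 545 CPM at 1 h of rehydration. It rose by 10.29 ± 1.30 on the log2 scale (SE; edgeR's quasi-likelihood test, adjusted p = 4.15e-05). PvG016879 had 0 counts at 1 h and 2003 counts over the other 2 libraries, with 84.9 CPM at 36 h and 7.32 CPM at 1 h of rehydration. Against a floor of 3 counts over the 1 h libraries it was at least 764-fold higher (edgeR's quasi-likelihood test, adjusted p = 0.0108), and most of that rests on the 36 h library. With this gene at its bound the median of the 33 was still 4.93.

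The smallest values belonged to PvG027448, at 2.42 ± 0.37 (SE, log2), and PvG024489, at 2.65 ± 0.30, both past the threshold. Leaving out 1 of the 4 libraries at a time kept between 30 and 33 of the 33 calls. PvG016879 lost its call without 1 h replicate 1 or replicate 2 (adjusted p = 0.0602 and 0.0544 by edgeR). Without scaling factors the median of all tested genes was -0.62 and that of the 33 was 4.45, and 1142 genes were called higher and 3657 lower over all tested genes, against 1956 and 2134.

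Within the late phase, the dry state, that is 48 h of dehydration and 0 h of rehydration with 4 libraries in all, was set against 40 h with 3. These 7 libraries are the late libraries that chose the members, so the values are a description and not an independent test. The edgeR quasi-likelihood fit called 0 of the 33 genes higher and 0 lower, with 0 at an unadjusted p under 0.05, and DESeq2 called 0. Over all tested genes 0.00% were called higher and 0.0618% lower. The 33 genes had log2 fold changes between -0.13 and 1.28 with a median of 0.28, against -0.10 over all tested genes, and 32 were above 0. Without scaling factors 21 were above 0, with a median of 0.08 against -0.34 over all tested genes. The 40 h side includes the library with a duration of 48 h. With that library moved to 48 h, 27 were above 0, as in batch 1 alone. With the number in the title in place of batch it was 25.

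PvG012512, with 4245, 6508 and 5173 CPM at 40 h, 5609 and 6983 CPM at 48 h and 6006 and 5258 CPM at 0 h of rehydration, had overlapping groups and a log2 fold change of 0.40 ± 0.20 (SE). In 3 genes the dry libraries all lay above those at 40 h, where 0.596% of all tested genes did so (0 lay below, against 5.75%): PvG029794, PvG029793 and PvG024489. PvG029794 had 826, 969 and 775 CPM at 40 h against 1146, 1177, 993 and 1160 CPM in the dry state, with a log2 fold change of 0.58 ± 0.82 (SE). The largest log2 fold change was that of PvG016879, 1.28, whose libraries overlapped.

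At 1 h of rehydration the 2 libraries differed widely. Replicate 1 held 1.42% of its counts in the 33 genes, next to 1.43% and 1.34% at 0 h. Replicate 2, the library that stood apart, held 1.68%, but 11 of the 33 genes were under 0.5-fold of replicate 1 and 15 over 2-fold above it. The share of all tested genes that differed by this much was not taken. PvG012512 was at 5778 CPM in replicate 1 and 943 CPM in replicate 2, and PvG014950 had 394 and 0 counts. At 3 h the libraries held 0.877% and 0.903%. The 0 h libraries were among those that chose the members, so 3 h was tested against libraries that were not, 36 h of dehydration and 1 h of rehydration replicate 1, of batches 2 and 1 like the 2 libraries at 3 h. These are the same 2 libraries as in the comparison with 1 h of dehydration. They adjoin the late libraries, in which the rule asked for high levels, so a fall from them was favoured by the choice of members.

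Of the 33 genes, 14 fell and 0 rose (edgeR's quasi-likelihood test, Benjamini-Hochberg adjusted p under 0.05 over 17789 genes), where 6.20% of all tested genes fell and 7.97% rose. At an unadjusted p under 0.05, 22 were lower and 0 higher, and DESeq2 called 16 lower and 0 higher. All 33 log2 fold changes were below 0, from -2.59 to -0.16 with a median of -1.58, against 0.08 over all tested genes. Without scaling factors 32 were below 0 and 1 above. The libraries did not overlap for 22 genes, all lower at 3 h, where 12.2% of tested genes lay lower and 40.8% higher.

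PvG011204 was at 38.5 and 43.3 CPM at 3 h, against 315 CPM at 36 h of dehydration and 95.7 CPM at 1 h of rehydration. It fell by 2.59 ± 0.57 on the log2 scale (SE; edgeR's quasi-likelihood test, adjusted p = 0.00609). PvG014950 (scaffold 26634, 184 to 1046, minus strand, 1 exon) had 142 and 172 counts at 3 h, against 573 at 36 h of dehydration and 394 at 1 h of rehydration in libraries of 21493804 to 26564125 counts, and fell by 2.30 ± 0.67 (SE, log2; edgeR's quasi-likelihood test, adjusted p = 0.0245). PvG012512, at 3127 and 3262 CPM against 8322 and 5778 CPM, fell by 1.62 ± 0.27 (SE, log2; edgeR's quasi-likelihood test, adjusted p = 0.000361).

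The 19 genes that did not pass included members still at their late level in CPM, which uses total counts. PvG017404 was at 713 and 782 CPM at 3 h, within the range of its late libraries, and its log2 fold change of -0.82 ± 0.49 did not pass. PvG001442 (113% of its late mean at 3 h), PvG005139 (129%) and PvG029158 (146%) were above their late means, and none of these 3 passed. Whether these genes differ from those that fell was not tested. Over the 33 genes the level at 3 h was between 37.7% and 146% of the late mean, with a median of 61.2%. These levels are not TMM-scaled. TMM factors were 1.106 and 1.269 at 3 h and between 0.543 and 0.869 in the late libraries. On the scale of the fit, every 3 h level therefore lies lower beside its late level than these values show.

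The 36 h library weighs on this test. Without it 4 members fell, and without replicate 1 or replicate 2 at 3 h the counts were 3 and 5. In batch 1 alone, with 1 library on each side, 0 fell, and with all 33 libraries in the fit 9 fell. Without scaling factors 6 fell, while 2862 genes rose and 299 fell over all tested genes (1417 and 1103 with TMM) and the median of all genes was 0.57. With upper quartile scaling 1265 rose and 1490 fell over all genes. PvG011204 lost its call without 36 h of dehydration or without either 3 h library (adjusted p from 0.0551 to 0.0922 by edgeR), and PvG014950 in the same 3 cases (0.117 to 0.199).

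Recovery was followed at 6, 12, 24 and 48 h of rehydration, with 1 library of batch 1 each. The members held 0.621%, 0.328%, 0.113% and 0.0384% of the counts at these times, so the sum ended below both 0 h libraries of dehydration. The median member did not: its difference from the 0 h level at 48 h was 0.00 (log2), and the abundant PvG027407, PvG012512 and PvG027448 were among those below. At 48 h 11 of the 33 genes were above both 0 h libraries. For 2 of the 33 genes the 12 h level was at or below the higher 0 h library, against 46.3% of all tested genes. At 24 h this held for 11 genes and at 48 h for 22, against 59.1% and 60.0% of all tested genes. The genes above both 0 h libraries at 48 h are the rest. The 48 h count is near the share of all tested genes. The rule chose genes that were low in the 0 h libraries, which favours levels above them at other times. Nothing about the members is read from the counts at 12, 24 and 48 h.

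The 24 and 48 h libraries, averaged over their fitted times, were tested against the 2 libraries at 3 h, none of them used by the rule. The rule had chosen genes high in the dry state, shortly before 3 h, and low at 0 h of dehydration. A fall after 3 h was therefore favoured by the choice of members. Partners of overlapping pairs are counted separately below, so the calls are not all separate. Of the 33 genes, 30 fell and 0 rose (edgeR's quasi-likelihood test, Benjamini-Hochberg adjusted p under 0.05 over 17789 genes), where 14.3% of all tested genes fell and 6.78% rose. At an unadjusted p under 0.05, 31 were lower and 0 higher, and DESeq2 called 30 lower and 0 higher. The median log2 fold change was -4.45, from -7.93 to -0.37, against -0.20 over all tested genes. In 32 genes the 24 and 48 h libraries lay below both at 3 h, as in 25.5% of tested genes, while 27.1% lay above. Leaving out 1 of the 4 libraries at a time gave between 21 and 29 genes that fell, and in batch 1 alone, with 1 library at 3 h, 21 fell.

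PvG016447 (scaffold 298, 32671 to 33536, minus strand, 1 exon) was at 62.7 and 114 CPM at 3 h, 2.35 CPM at 24 h and 0.0468 CPM at 48 h. It fell by 7.93 ± 0.74 on the log2 scale (SE; edgeR's quasi-likelihood test, adjusted p = 6.81e-07). PvG014950 went to 0.371 CPM at 24 h and 0 counts at 48 h and fell by 7.16 ± 1.12 (SE, log2; edgeR's quasi-likelihood test, adjusted p = 7.29e-05). PvG012512 went to 93.5 and 61.3 CPM, below its 120 and 168 CPM at 0 h of dehydration, and fell by 5.53 ± 0.32 (SE, log2; edgeR's quasi-likelihood test, adjusted p = 2.14e-10).

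The overlapping pair PvG027407 and PvG027448 ended far below where it began. PvG027407 was at 33.5 CPM at 24 h and 4.49 CPM at 48 h of rehydration, against 134 and 149 CPM at 0 h of dehydration. PvG027448 was at 25.7 and 2.62 CPM, against 57.3 and 69.8 CPM. With 1 library at each of these times, this undershoot was not tested.

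The 3 genes that did not pass were PvG005139, PvG016879 and PvG024128. PvG005139 was at 19.1 and 32.7 CPM at 3 h, 36.6 CPM at 24 h and 13.2 CPM at 48 h, with a log2 fold change of -0.37 ± 0.64 (SE; edgeR's quasi-likelihood test, adjusted p = 0.758). That sign turned in batch 1 alone (0.02) and without the 48 h library (0.38). It had no count at 0 h of dehydration and at 48 h of rehydration still held 65.7% of its late mean. PvG024151 (scaffold 493, 882457 to 885071, plus strand, 5 exons), singled out after its values were seen, passed but kept 119 CPM at 24 h and 72.0 CPM at 48 h, above its 15.7 and 22.4 CPM at 0 h. Over the 33 genes, the 48 h level was between 0.00% and 65.7% of the late mean, with a median of 2.81%.

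**Figure D4:**
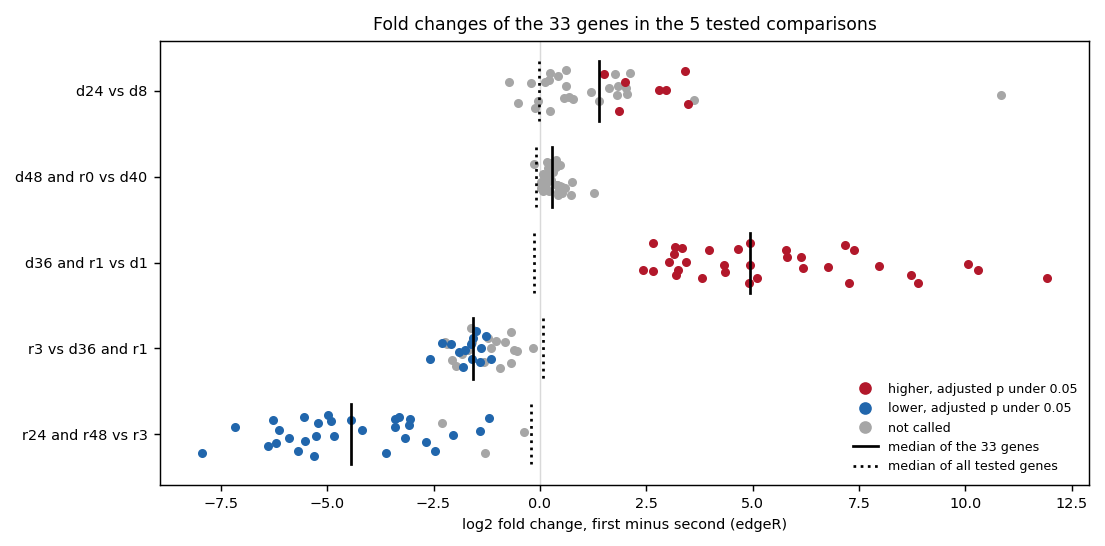
Log2 fold changes (first minus second, edgeR) of the 33 genes in the 5 fitted comparisons, 1 point per gene, coloured by call, with solid bars at the median of the 33 genes and dotted bars at the median of all tested genes. The calls for d24 against d8 and for d48 and r0 against d40 are a description, since those libraries chose the members. All 33 points lie above 0 for d36 and r1 against d1 and below 0 in both rewetting comparisons (1 is above 0 at 3 h without scaling factors), while for d48 and r0 against d40 they crowd near 0. The point at 10.83 for d24 against d8 is PvG016879, which had no count at 8 h, so its fitted value depends on the prior count.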

How the data were processed

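The deposited values are raw read counts for each gene model, made by the authors as whole numbers and not normalized. They come with an annotation of gene positions whose source column names SAJR. The submitters' processing notes name TopHat2 as a tool. Its version and role, the counting settings and the genome build are not given in the sources used here. Positions are those of the deposited annotation, counted from 1.

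The members, the comparisons and the left-out library were chosen with earlier results of these data known. CPM used total counts. The fit covered 32 libraries and 17789 genes with edgeR 4.0.16 (R 4.3.3, limma 3.58.1): TMM scaling, a coefficient for each of 17 times, a batch term and the robust quasi-likelihood F-test, called at an adjusted p under 0.05. Standard errors are the log2 fold change divided by the square root of F. Tests that use times with 1 library assume that such libraries vary like the replicated ones. The floor of 3 counts covers counting error only.

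Members were named by ID and position: the 5 with the most late counts, those in runs of 3 or more, the 2 with the largest called rise and fall in each comparison, and the nearest to each threshold. Any other member named was picked after its values were seen. Alternatives were DESeq2 1.42.0, other scalings and filters, no batch term, batch 1 alone, all 33 libraries, a replicate block, the 40 h library with a 48 h duration moved to 48 h, and each library left out in turn.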

Additional observations from a re-analysis of the deposited data

Results flagged for a closer look

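Libraries that entered none of the 5 comparisons held more of the 33 genes than either 0 h library. The members took 0.328% of the counts at 32 h of dehydration, 0.621% at 6 h and 0.328% at 12 h of rehydration, each in 1 library, against at most 0.0666% at 0 h. The rule chose genes that were low at 0 h, which favours a higher share at other times, so nothing is read from this. Replicate 2 at 1 h of rehydration held 1.68%. In that library 15 of the 33 genes were over 2-fold above replicate 1 and 11 were under 0.5-fold of it. No share over all tested genes was taken, so nothing about the members is read from these counts. PvG012512 was at 943 CPM there against 5778 CPM in replicate 1, and PvG032107 at 2201 against 905 CPM.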

How the results depend on the processing

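The number of members was 33 under the rule and 73 with TMM-scaled CPM, 44 without replicate 1 at 0 h and 47 without replicate 2. Leaving out the 40 h library with a 48 h duration gave 34 members, 32 of them shared, and batch 1 alone gave 33, with 31 shared.

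For 24 h against 8 h, the 7 members called higher became 16 with DESeq2, 0 with all 33 libraries, 1 in batch 1 alone and 3 to 5 with 1 library left out, and 1 was called lower without scaling factors. With the replicate block (the number in the title in place of batch) 15 were higher and 1 lower. Same-numbered libraries of these times deviated together for numbers 1 and 3 (Pearson correlation 0.279 and 0.160 across genes). Those without a number had -0.0248. Among the libraries of number 1 at 40 h, 48 h and 0 h of rehydration the correlations were 0.083, 0.0463 and -0.0703. Whether the numbers pair libraries was not settled, and the main fit used batch. For 3 h of rehydration against 36 h of dehydration and 1 h of rehydration, the 14 members called lower became 6 without scaling factors, 9 with all 33 libraries, 0 in batch 1 alone (1 library on each side) and 3 to 12 with 1 library left out. All other counts of members called stayed within 1.5 times under every alternative run. Among them were the 33 higher against 1 h of dehydration, the 30 lower at 24 and 48 h of rehydration and the 0 in the dry state. The cause of the shifts was not tested. Among the single fold changes printed with an error or a p, that of PvG005139 at 24 and 48 h against 3 h of rehydration turned its direction, to 0.02 in batch 1 alone and 0.38 without the 48 h library (-1.11 to 0.38 with 1 library left out). Of all their values under the alternatives, 267 kept direction and side of the threshold, 31 lost the threshold and 2 passed it newly.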
